A study of Mus musculus with 2 samples.

Results

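The cells described here are basal-sorted buccal keratinocytes that were outside the cell cycle and carried an intermediate amount of the suprabasal keratins Krt4 and Krt13. They numbered 1055 in library 1 and 1242 in library 2, which is 2297 of the 15470 cells kept from 16291 barcodes. Buccal mucosa from 10 pooled C57BL/6 mice (females, 12 weeks old, untreated and with no engineered allele in the labels) had been sorted for high surface CD104, the β4 integrin encoded by Itgb4, and captured on the 10x Chromium platform. Both libraries, 1 and 2, came from that single suspension as technical replicates, so the series holds 1 independent sample. No comparison below has a biological replicate or a p-value, and the spread between libraries is technical.

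A kept cell had at least 500 genes and at most 10% mitochondrial unique molecular identifiers (UMIs). K is the sum of Krt4 and Krt13 UMIs per 10000 UMIs of a cell. Intermediate cells had K of at least 80 and under 350. On the same scale, a sum over 7 DNA replication transcripts (Mcm3, Ung, Hells, Dtl, Ccne2, Cdt1, Rrm2) and a sum over 6 mitotic transcripts (Top2a, Cenpf, Ube2c, Ccnb1, Nusap1, Prc1) were each under 6, a histone sum (Hist1h1c, Hist1h2bc, Hist1h4i) was under 5, and a stress sum (Krt16, S100a8, Alox15) was under 10. The comparators met the same limits and differed in K. Low-K cells had K under 80 (1687 and 1790 cells), and high-K cells had K of 350 or more (1204 and 1678 cells). All 3 classes were chosen by K and the 4 other sums, which are measured values. Every difference between them is therefore a description, and levels of the genes in the rule are not results.

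In stratified epithelium, proliferating basal cells sit on the basement membrane, to which hemidesmosomes tie their Krt5 and Krt14 filaments. A cell that commits to differentiation loses these anchors, leaves the cell cycle and moves into suprabasal layers, where desmosomes are reinforced and other keratins are made. Notch receptors, activated by ligands on neighbouring cells, promote this exit, and transcription factors such as Zfp750, the Grhl family, Klf4 and Ovol1 drive the later programme. In the lining of the mouse cheek the suprabasal keratins are Krt4 and Krt13, whereas epidermis uses Krt1 and Krt10.

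Intermediate cells were 15.3% of kept cells in library 1 (exact 95% binomial interval 14.4 to 16.1) and 14.5% in library 2 (13.8 to 15.3). These intervals cover counting error only. K had a low-end and a high-end crowd of cells with fewer cells between them. In library 1, 70 cells had K from 90.5 to 108, against 272 in the fullest bin below the window and 220 in the fullest bin above it. In library 2 the same bin held 91 cells, against 287 below and 329 above. The lower part of the window was therefore a thinly filled part of a continuous range, and no gap marks either limit. Toward the upper limit the bins were fuller, with 158 cells in library 1 and 212 in library 2 at K from 256 to 304.

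**Figure D1:**
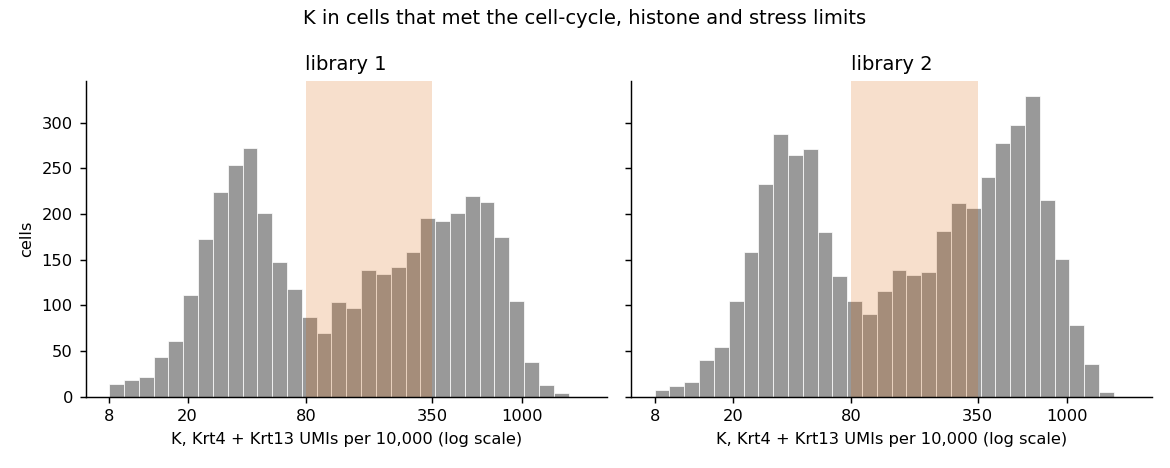
Number of cells (vertical axis) by K on a log scale (horizontal axis) in each library, for kept cells that met the cell-cycle, histone and stress limits, with K under 8 drawn in the first bin. The shaded window from 80 to 350 marks intermediate cells, which lie between a crowd of cells near K of 40 and another near 600. The bins just above the lower limit hold fewer cells than the fullest bins of either crowd.

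Near the limits, 55 and 65 cells had K from 80 to 90, against 73 and 82 cells from 70 to 80. Krt14 was at 8175 and 6980 CPM (UMIs of a gene summed over a class and library, scaled to the usual counts per 1e6 UMIs) just inside this limit, against 7862 and 9217 CPM just outside it. Another 68 and 68 cells had K from 330 to 350, against 65 and 77 cells from 350 to 370. Krt14 was at 679 and 653 CPM just inside the upper limit, against 787 and 908 CPM just outside it. Thbd was at 25.9 and 24.7 CPM just inside the lower limit, against 27.8 and 15.5 CPM just outside it. It was at 74.6 and 47.8 CPM just inside the upper limit, against 41.7 and 37.8 CPM just outside it. These bins hold few cells, and the class is a range of K and not a cell type.

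Depth moved with K. Median UMIs per cell were 7631 and 6304 in intermediate cells, 5965 and 4855 in low-K cells, and 14667 and 12116 in high-K cells. A droplet with 1 typical cell of each end would hold about 20632 UMIs in library 1 and 16971 in library 2, the sums of the end medians. Of intermediate cells, 11 of 1055 and 15 of 1242 reached these sums (1.04% and 1.21%). A doublet with a smaller high-K partner can fall inside the window below these sums, so this share does not measure doublets. No doublet caller was run and none were removed, and the part of doublets in these results was not tested. Of all barcodes, 104 occurred in both libraries, and 2 of them were intermediate in both. Between the libraries, intermediate cells differed by at least 1.5-fold for 12 of the 4966 genes tested.

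Markers of other cell types were rare. At least 3 of 12 immune markers were found in 1 and 9 intermediate cells, 22 and 28 low-K cells, and 11 and 10 high-K cells. At least 3 of 7 glandular markers were found in 3 and 3 intermediate cells, 48 and 32 low-K cells, and 1 and 0 high-K cells. No intermediate cell held 3 of the 8 fibroblast, 6 endothelial or 8 melanocyte and Merkel markers (0 of 1055 and 0 of 1242 cells, with exact upper bounds of 0.349% and 0.297%). Immune cells also carried K, with medians of 24.9 and 24.4 (21 and 35 cells), close to the 36.1 and 37.6 of low-K cells and far below the 195 and 199 of intermediate cells. The part of free RNA in these K values was not tested.

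Cell-cycle genes that the rule did not use were low. The summed level of 14 replication genes was 202 and 216 CPM in intermediate cells, which is 23.1% and 24.5% of the level in cycling cells (872 and 879 CPM). Low-K cells stood at 335 and 353 CPM and high-K cells at 128 and 132 CPM. The summed level of 16 mitosis genes was 237 and 277 CPM in intermediate cells, or 4.82% and 5.66% of cycling cells. It was 218 and 227 CPM in low-K cells and 154 and 160 CPM in high-K cells. The summed mitotic level was thus above both ends in both libraries, and the summed replication level lay between the ends.

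The 6 transcripts that describe these cells behaved in 3 ways. Krt13 belongs to the rule. Thbd encodes thrombomodulin, a surface receptor that binds thrombin. It was at 45.1 and 38.7 CPM in intermediate cells, against 10.8 and 7.92 CPM in low-K cells and 23.3 and 21.5 CPM in high-K cells. Both intermediate values lay above all 4 others. The log2 ratio was 2.18 over low-K cells and 0.90 over high-K cells (exact 95% counting intervals over high-K cells 0.75 to 1.15 and 0.64 to 1.05).

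Thbd was the single gene of 4966 (0.0201%) at least 1.5-fold above both ends in both libraries. Across K it was highest from 150 to 250, at 51.5 and 41.5 CPM, and stood at 13.7 and 10.1 CPM at K of 700 or more. The call against high-K cells did not hold in settings that changed depth. Median UMIs rose with K among high-K cells, from 12972.5 and 10506.5 at K of 350 to 700 to 19827 and 16869 at 700 or more. Depth and K therefore cannot be told apart in these settings. The log2 ratio over high-K cells was 0.55 after every cell was thinned to 3000 UMIs, 0.47 without the 10% of cells with most UMIs, and 0.40 among cells of 5000 to 9000 UMIs, all under the 1.5-fold limit of 0.58. After thinning, 10.7% and 10.9% of intermediate cells held a Thbd UMI, against 3.2% and 2.74% of low-K cells and 8.22% and 7.63% of high-K cells. Immune cells held one in 0 of 21 and 2 of 35 cells.

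Prlr encodes the prolactin receptor, a cytokine receptor that signals through JAK2 and STAT5. It was at 135 and 137 CPM in intermediate cells, against 87.8 and 92.1 CPM in low-K cells and 113 and 108 CPM in high-K cells. Its values were also highest in intermediate cells, yet the log2 ratios of 0.60 and 0.30 did not pass the 1.5-fold rule in both libraries over either end. Prlr was lowest at K of 700 or more (72.7 and 66.4 CPM) and highest from 250 to 350 (146 and 156 CPM). Past the window, at K of 350 to 700, it was still at 141 and 141 CPM. After thinning, 25.7% and 24.9% of intermediate cells held a Prlr UMI. High-K cells were close to this at 25.6% and 23.7%, and low-K cells were at 19.0% and 18.1%.

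Notch3, a Notch receptor, was at 42.3 and 34.3 CPM in intermediate cells, against 4.43 and 4.39 CPM in low-K cells and 39.8 and 31.0 CPM in high-K cells. It was thus far above low-K cells (log2 3.11) and close to high-K cells (log2 0.11, and -0.29 among cells of 5000 to 9000 UMIs). Zfp750, a zinc finger factor of terminal epidermal differentiation, was at 49.8 and 45.8 CPM in intermediate cells, against 9.43 and 7.07 CPM in low-K cells and 69.3 and 62.0 CPM in high-K cells. Its level was above low-K cells (log2 2.55), and the log2 ratio of -0.46 over high-K cells did not pass the rule.

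Krt5, the type II basal keratin, was at 2534 and 2619 CPM in intermediate cells, against 3620 and 3385 CPM in low-K cells and 408 and 398 CPM in high-K cells. Intermediate cells were thus closer to low-K cells for Krt5 (log2 -0.44, under the size rule) and far above high-K cells (log2 2.68). The Krt5 gene lies at chr15:101707070-101712898 and Krt14 at chr11:100203162-100207548, both on the minus strand of GRCm38. On the same build Thbd lies at chr2:148404466-148408188, minus strand, and Notch3 at chr17:32120820-32166852, minus strand. Zfp750 lies at chr11:121510978-121519333, minus strand, and Prlr at chr15:10177238-10349180, plus strand. All are protein-coding.

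**Figure D2:**
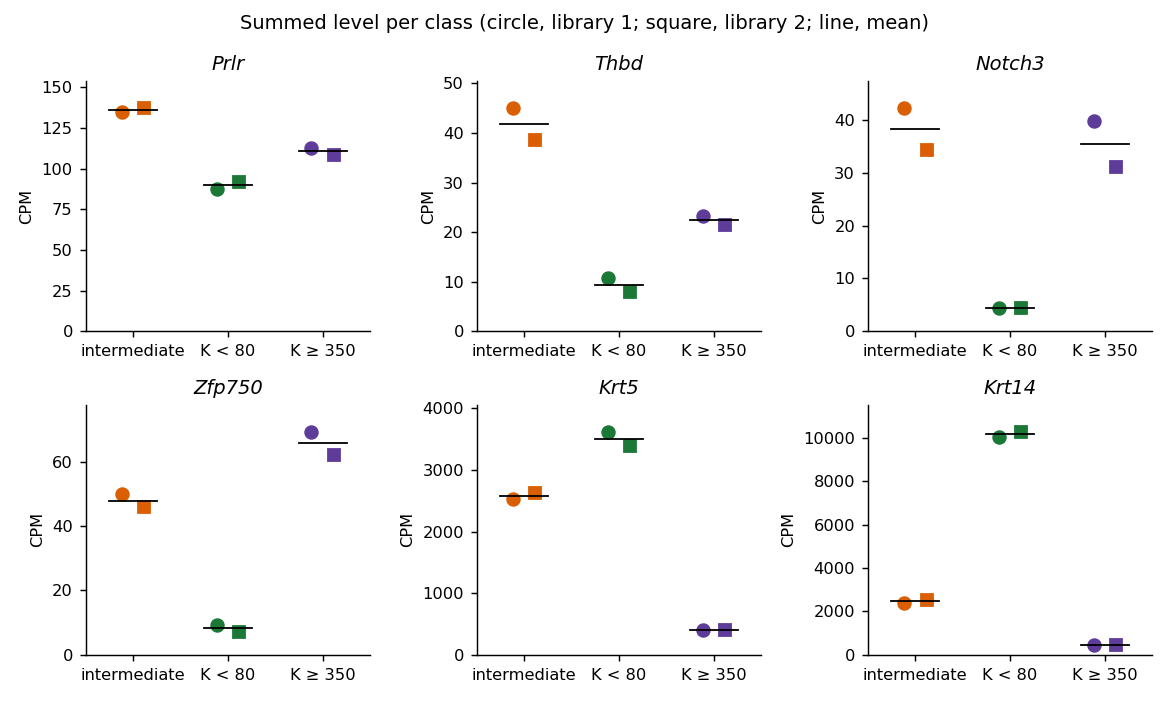
Summed level in CPM (vertical axes, from 0) of 5 label markers and Krt14 in intermediate, K<80 and K>=350 cells, with a point per library and a line at the mean. Thbd and Prlr were highest in intermediate cells, Notch3 and Zfp750 were near 0 in K<80 cells, and Krt5 in intermediate cells was nearer to its K<80 level than Krt14 was.

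Over all genes, 301 of 4966 (6.06%) were at least 1.5-fold higher in both libraries in intermediate cells than in low-K cells, and 322 (6.48%) were lower. Against high-K cells, 596 (12%) were higher and 186 (3.75%) were lower. A gene had to average 20 CPM over the 3 classes. The genes of the rule and mitochondrial genes were not counted. These shares are the background for the counts of gene groups below, and since K chose the classes nothing is read from them. The median log2 ratio of all genes was -0.04 over low-K cells and 0.20 over high-K cells, so that a small part of each ratio over high-K cells was common to all genes. With median-of-ratios scaling, which removes this shift, 298 genes were higher and 316 lower than in high-K cells. At any size, 815 genes (16.4%) lay above both ends in both libraries and 139 (2.8%) below both.

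Most genes past the rule on both sides were graded: 247 were lower than in low-K and higher than in high-K cells, and 140 the reverse. A further 160 genes were higher than in low-K cells without passing the rule against high-K cells, and 348 were higher than in high-K cells without passing it against low-K cells. Slc3a2, the heavy chain of several amino acid transporters, was the single gene at least 1.5-fold below both ends. It was at 90.2 and 94.2 CPM in intermediate cells, against 164 and 166 CPM in low-K cells and 142 and 147 CPM in high-K cells. The log2 ratio of -0.65 over high-K cells was -0.55 after thinning, -0.56 with per-cell scaling, -0.36 among cells of 5000 to 9000 UMIs and -0.32 without the 10% of cells with most UMIs, all inside the 1.5-fold limit.

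**Figure D3:**
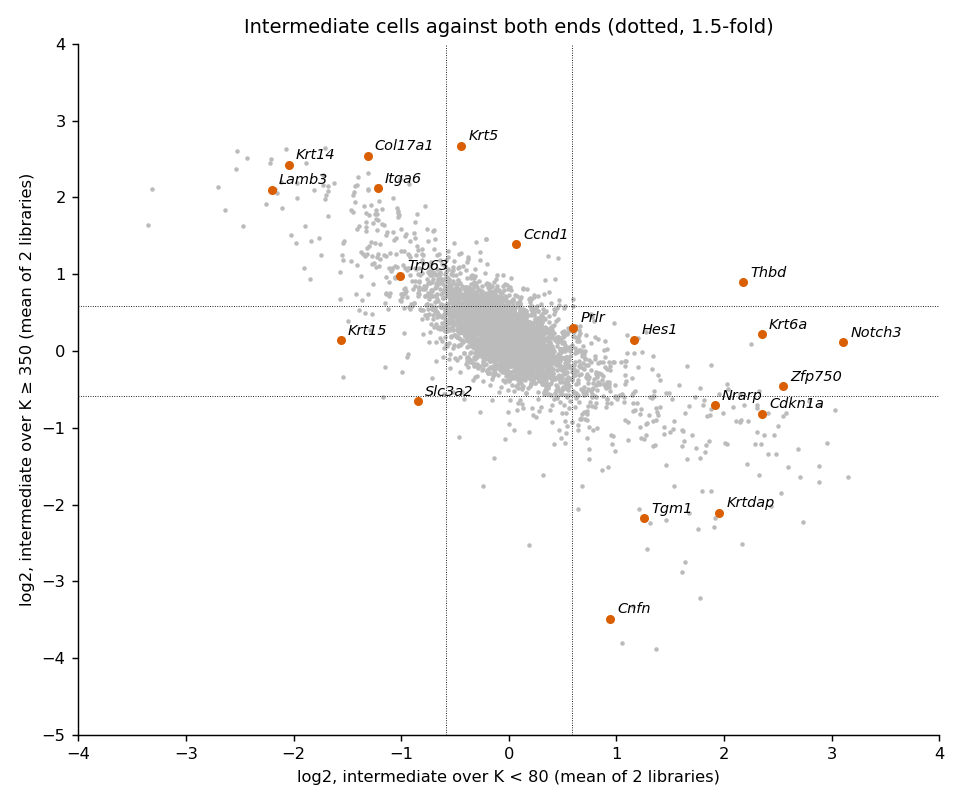
Log2 ratio of intermediate over K<80 cells (horizontal axis) against that over K>=350 cells (vertical axis), mean of 2 libraries, with a point for each of 4966 genes (4 outside the axes) and dotted lines at 1.5-fold. Graded genes run from upper left (Krt14, Lamb3) to lower right (Tgm1, Krtdap), Krt5 and Ccnd1 are past the line for K>=350 cells and not that for K<80 cells, Notch3 and Krt6a the reverse, and Thbd is alone at the upper right.

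Anchoring to the basement membrane was reduced at the transcript level. Of 8 tested hemidesmosome and basement membrane genes, 6 were lower than in low-K cells and 6 were higher than in high-K cells (median log2 -1.26 and 1.96). Itga6 and Itgb4, which pair as the α6β4 integrin of the hemidesmosome, had log2 ratios of -1.22 and -1.44 over low-K cells and of 2.12 and 2.08 over high-K cells. Itgb4, the antigen of the sort, was at 48.5 and 46.6 CPM in intermediate cells, against 140 and 118 CPM in low-K cells and 11.9 and 10.7 CPM in high-K cells. All 3 classes had passed the sort on its protein.

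Col17a1, the transmembrane collagen of hemidesmosomes, was at 140 and 141 CPM in intermediate cells, against 371 and 330 CPM in low-K cells and 23.7 and 24.6 CPM in high-K cells. Lamb3, a chain of laminin-332, was at 14.2 and 15.8 CPM in intermediate cells, against 70.8 and 67.5 CPM in low-K cells and 3.17 and 3.85 CPM in high-K cells. Lamb3 was thus further down than the receptors that bind the laminin.

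The basal keratins parted from each other. Krt14, the usual partner of Krt5, was at 2398 and 2530.3 CPM in intermediate cells, against 10041 and 10282 CPM in low-K cells and 444 and 474 CPM in high-K cells. Its log2 ratio over low-K cells was -2.04, where that of Krt5 was -0.44. The ratio of Krt5 to Krt14 UMIs was 1.06 and 1.04 in intermediate cells, 0.361 and 0.329 in low-K cells, and 0.918 and 0.841 in high-K cells. Along K this ratio was 0.703 and 0.653 from 80 to 150, 1.40 and 1.48 from 150 to 250, and 1.81 and 1.63 from 250 to 350, and then 0.554 and 0.574 at K of 700 or more. Both libraries thus had their highest ratio in the upper part of the window. After thinning, Krt5 was found in 53.3% and 54.1% of high-K cells, against 57.1% and 62.9% of immune cells. Krt14 was found in 61.5% and 62.5% of high-K cells, against 61.9% and 68.6% of immune cells. The part of free RNA in the ratios of high-K cells, and so in the fall past the window, was not tested.

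Krt15, a basal keratin often linked to quiescent progenitors, was at 785 and 969 CPM in intermediate cells, against 2385 and 2780.4 CPM in low-K cells and 687 and 915 CPM in high-K cells. It had reached the high-K level in the window (log2 0.14 over high-K cells). Trp63, the gene of the basal master regulator p63, was midway, with log2 ratios of -1.01 over low-K and 0.98 over high-K cells. Krt1 and Krt10, the suprabasal keratins of skin, were not higher than in low-K cells taken as a class. Krt1 was at 69.8 and 25.7 CPM in intermediate cells, against 108 and 120.3 CPM in low-K cells and 8.57 and 14.1 CPM in high-K cells. Krt10 was at 106 and 74.5 CPM in intermediate cells, against 200 and 253 CPM in low-K cells and 59.6 and 67.3 CPM in high-K cells. Along K, Krt1 averaged 774 CPM at K under 20 and 42.0 CPM at 20 to 80. Over the ranges of the window it averaged 28.4, 41.5 and 68.4 CPM. Krt10 averaged 1325 CPM at K under 20, 108 CPM at 20 to 80, and 82.7, 67.0 and 119 CPM in the window. The low-K class values of both genes thus rest heavily on cells of K under 20.

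Within the window itself, Krt14 was at 5136 and 5067 CPM at K of 80 to 150, 1866 and 1903 CPM at 150 to 250, and 918 and 1136 CPM at 250 to 350, a 4.97-fold range. Krt5 was at 3613 and 3311 CPM, then 2605 and 2825 CPM, then 1663 and 1857 CPM over the same ranges, a 1.97-fold range. Taking the log2 path of a gene between K of 20 to 80 and K of 700 or more, Krt14 had covered 19.5% of it at K of 80 to 150 and 65.1% at 250 to 350. Krt5 had covered 0.65% and 23.0%. Lamb3 had covered 23.1% and 68.7%, while Col17a1 had covered 10.8% and 48.8% and Itga6 13.8% and 48.7%. Each of these paths ends at the level at K of 700 or more, and the part of free RNA in that level was not tested.

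**Figure D4:**
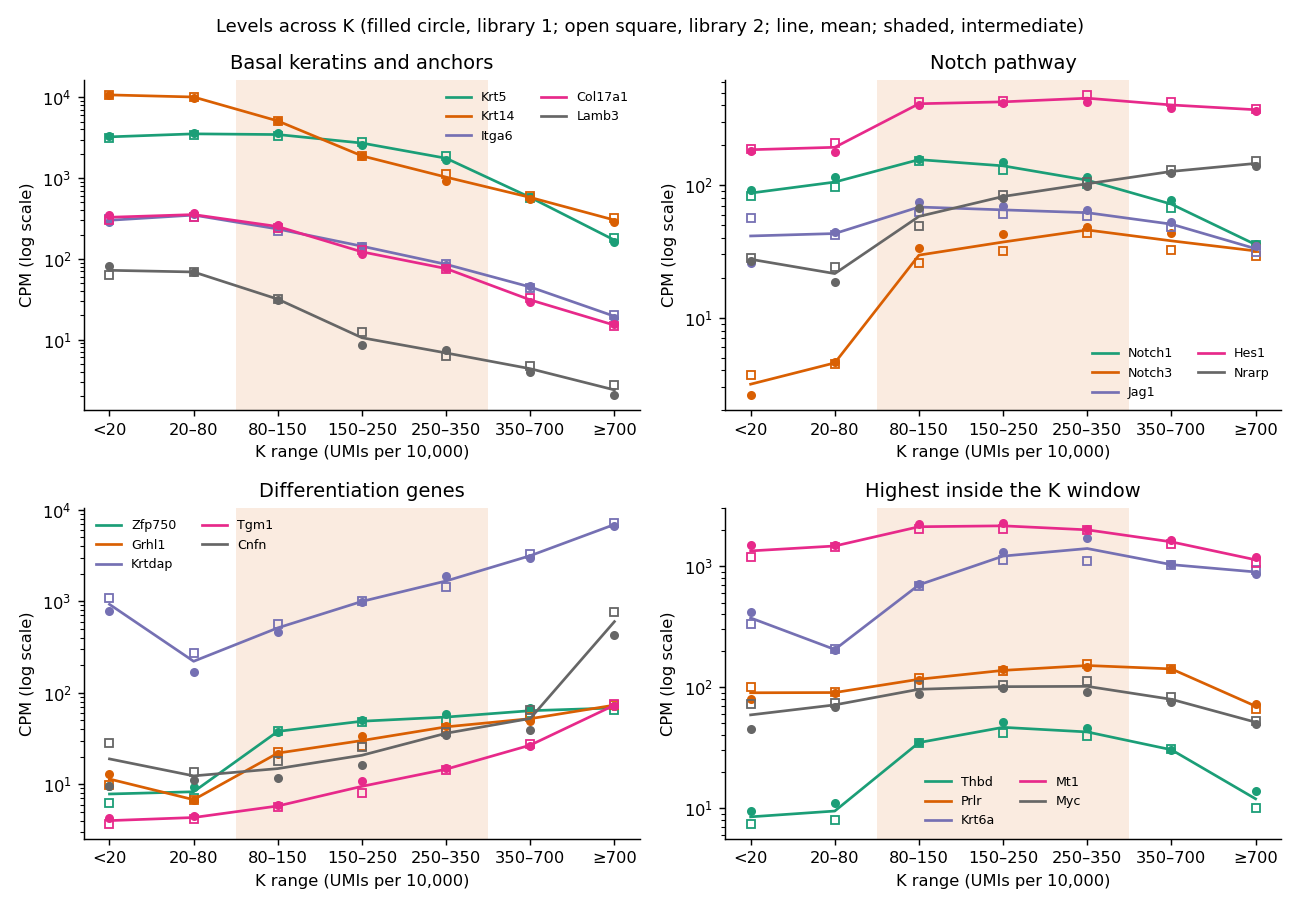
CPM on a log axis against 7 ranges of K, low to high, in non-cycling cells of library 1 (filled circles) and library 2 (open squares), with lines at the mean and the intermediate ranges shaded. Krt14 and Lamb3 are steeper than Krt5 inside the window, Notch3, Hes1 and Zfp750 are higher in the range from 80 to 150 than in that from 20 to 80, Tgm1 and Cnfn are highest past its upper limit, and Thbd, Prlr, Krt6a, Mt1 and Myc have their highest mean inside it.

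Notch3 and the Notch targets Hes1 and Nrarp were well above low-K cells. Of the 6 Notch pathway genes tested, 3 (Notch3, Hes1 and Nrarp) were higher than in low-K cells and none was lower. Against high-K cells, 1 was higher (Notch1) and 1 lower (Nrarp). Hes1, a repressor and direct Notch target, was at 417 and 446 CPM in intermediate cells, against 179 and 206 CPM in low-K cells and 376 and 402 CPM in high-K cells. Nrarp, a target that limits Notch signalling, was at 83.5 and 81.9 CPM in intermediate cells, against 19.6 and 24.6 CPM in low-K cells and 130.3 and 140 CPM in high-K cells. Hes1 thus resembled Notch3 in reaching the high-K level, and Nrarp did not.

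Receptors and ligands differed in their course. Notch1 was at 139 and 127 CPM in intermediate cells, against 112 and 94.9 CPM in low-K cells and 59.8 and 53.1 CPM in high-K cells, and was highest at K of 80 to 150 (159 and 153 CPM). Notch3 at K of 80 to 150 was already at 33.3 and 26.0 CPM, against 4.66 and 4.46 CPM at K of 20 to 80, which is 96.3% of its path. Near the limit, Notch3 was at 25.9 and 19.2 CPM at K of 80 to 90 (55 and 65 cells). It was at 15.9 and 15.5 CPM at K of 70 to 80 (73 and 82 cells). With so few cells, the K at which its rise began is not read from these bins. Jag1, a ligand, was at 69.1 and 60.6 CPM in intermediate cells, against 42.0 and 43.6 CPM in low-K cells and 45.4 and 41.1 CPM in high-K cells. Both of its intermediate values lay above both ends, at log2 ratios of 0.60 and 0.58 that did not pass the rule in both libraries. Among cells of 5000 to 9000 UMIs its log2 ratio over high-K cells was -0.05.

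The ligands Dll1 and Jag2 ran the other way, although their mean over the classes was under 20 CPM and they were not counted. Dll1 was at 3.49 and 5.09 CPM in intermediate cells, against 27.2 and 29.0 CPM in low-K cells and 1.11 and 1.86 CPM in high-K cells. Jag2 was at 5.30 and 5.67 CPM in intermediate cells, against 24.1 and 22.6 CPM in low-K cells and 1.32 and 1.46 CPM in high-K cells. Lfng, a glycosyltransferase that modifies Notch receptors, was at 2.37 and 2.66 CPM in intermediate cells, against 21.1 and 22.3 CPM in low-K cells. These 3 genes were named after their values were seen.

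The promoter windows of Notch3 and Nrarp are shown because both genes were above low-K cells and are Notch pathway members present in the RefSeq promoter table (GRCm38.p6). Each is the 250 bases before the listed start, 5′ to 3′ on the gene's strand, chr17:32166891-32167140 (minus) for Notch3 and chr2:25180508-25180757 (plus) for Nrarp. Capitals mark GC boxes (GGGCGG on either strand).
Notch3: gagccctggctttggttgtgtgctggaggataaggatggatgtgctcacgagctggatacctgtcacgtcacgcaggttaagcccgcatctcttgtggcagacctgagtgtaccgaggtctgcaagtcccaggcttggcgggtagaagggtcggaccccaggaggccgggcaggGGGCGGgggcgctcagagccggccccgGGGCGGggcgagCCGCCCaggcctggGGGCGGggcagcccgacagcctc
Nrarp: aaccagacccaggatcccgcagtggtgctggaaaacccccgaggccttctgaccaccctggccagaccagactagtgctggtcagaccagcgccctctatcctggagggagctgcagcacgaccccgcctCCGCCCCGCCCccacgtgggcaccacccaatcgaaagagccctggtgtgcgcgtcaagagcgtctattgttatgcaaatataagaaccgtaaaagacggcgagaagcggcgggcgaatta
Notch3 held 4 GC boxes and Nrarp 2, which overlap each other, where 32.7% of 32851 such windows held at least 1. The core of the motif bound by RBPJ, the DNA-binding partner of Notch (TGGGAA, either strand), was in neither window and in 21.6% of all windows. A match is a description of letters and not a binding site.

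Several transcription factors of differentiation were above low-K cells. Of 19 tested, 8 were higher than in low-K cells (among them Zfp750, Grhl1, Grhl3, Ovol1, Klf4, Cebpa and Maf) and none was lower. Grhl1, Grhl3 and Klf4 were still lower than in high-K cells, and Grhl2 was higher. Grhl3, a factor of barrier formation, was at 44.1 and 48.3 CPM in intermediate cells, against 11.7 and 10.2 CPM in low-K cells and 76.8 and 75.6 CPM in high-K cells. Maf, a factor of late keratinocyte differentiation, was close to the high-K level (log2 -0.14 over high-K cells) and above low-K cells (1.08). Zfp750 had covered 72.0% of its path at K of 80 to 150 and Grhl1 49.3%. The oral factor Pax9 did not pass the rule, with log2 ratios of -0.05 over low-K cells and 0.24 over high-K cells.

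The differentiation genes Tgm1, Cnfn, Lor and Krtdap had covered less of their path than Zfp750 and Grhl1. Among desmosome genes at K of 80 to 150, Dsg1a had covered 52.5% and Dsc2 40.7%. Of 14 tested cornified envelope genes, 12 were higher than in low-K cells and 13 were lower than in high-K cells (median log2 1.30 and -1.76). Tgm1, a transglutaminase that crosslinks the envelope, was at 11.1 and 9.60 CPM in intermediate cells, against 4.43 and 4.18 CPM in low-K cells and 45.1 and 48.2 CPM in high-K cells. Cnfn, cornifelin, was at 21.8 and 27.5 CPM in intermediate cells, against 10.9 and 14.9 CPM in low-K cells and 201 and 375 CPM in high-K cells. At K of 80 to 150, Tgm1 had covered 10.3% and Cnfn 4.71% of their paths, and at K of 250 to 350 they had covered 43.0% and 27.6%.

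Lor, loricrin, was at 10.9 and 11.5 CPM in intermediate cells, against 8.40 and 11.6 CPM in low-K cells and 45.7 and 90.7 CPM in high-K cells, and so overlapped low-K cells. Krtdap, a secreted differentiation peptide, was further along, at 1181 and 1031 CPM in intermediate cells, against 236 and 342 CPM in low-K cells and 4529.9 and 4986 CPM in high-K cells.

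Most desmosome genes were above low-K cells. Of 10 tested, 8 were higher than in low-K cells, 3 were lower than in high-K cells and 1 (Dsc3) was higher (median log2 0.77 and -0.34). Dsc2, a desmosomal cadherin, was at 183 and 174 CPM in intermediate cells, against 65.8 and 57.6 CPM in low-K cells and 331 and 337 CPM in high-K cells. Dsg1a and Dsg1b are near-identical copies whose reads may be split between them, and both were higher than in low-K cells (log2 2.46 and 2.11). Pvrl1 and Pvrl4, adherens junction nectins, had log2 ratios of 0.76 and 2.41 over low-K cells, and of 0.11 and -0.81 over high-K cells. Cldn8, a tight junction claudin, was higher than in high-K cells (1.46) and did not pass the rule against low-K cells (-0.21).

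Of 10 tested cholesterol synthesis genes, 8 were higher than in low-K cells, and 5 were lower than in high-K cells (median log2 1.53 and -0.71). Sqle, squalene epoxidase, was at 26.5 and 24.1 CPM in intermediate cells, against 3.96 and 4.71 CPM in low-K cells and 42.5 and 48.7 CPM in high-K cells. Fdps, which makes farnesyl diphosphate, was at 109 and 116 CPM in intermediate cells, against 30.3 and 32.7 CPM in low-K cells and 245 and 280.4 CPM in high-K cells. The binding protein Fabp5, which carries fatty acids, was also higher than in low-K cells (log2 2.22).

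Of 7 tested D cyclins, CDK inhibitors and pocket proteins, 2 were higher and 1 was lower than in low-K cells, and 2 were higher and 1 was lower than in high-K cells. Cdkn1a, the CDK inhibitor p21, was at 229 and 245 CPM in intermediate cells, against 43.0 and 49.7 CPM in low-K cells and 389 and 447 CPM in high-K cells. Ccnd2, a D cyclin, was at 285 and 283 CPM in intermediate cells, against 924 and 915 CPM in low-K cells and 71.7 and 67.4 CPM in high-K cells. Ccnd1, another D cyclin, was at 141 and 150.3 CPM in intermediate cells, against 143 and 136 CPM in low-K cells and 55.2 and 55.7 CPM in high-K cells. Ccnd1 thus overlapped low-K cells and had its highest level at K of 80 to 150 (176 and 174 CPM). There Ccnd2 was at 511 and 485 CPM, against 938 and 927 CPM at K of 20 to 80.

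Some Wnt, TGF-β and BMP genes were lower than in low-K cells, where 6.48% of all genes tested were. Over high-K cells, 12% of all genes tested were higher. Of 8 tested Wnt pathway genes, 2 were lower than in low-K cells and 3 were higher than in high-K cells. The ligand Wnt10a was at 31.7 and 38.1 CPM in intermediate cells, against 157 and 166 CPM in low-K cells and 6.03 and 6.68 CPM in high-K cells. Of 8 tested TGF-β and BMP genes, 2 were lower than in low-K cells and 5 were higher than in high-K cells. Id3, a BMP target, was at 248 and 266 CPM in intermediate cells, against 362 and 367 CPM in low-K cells and 97.5 and 96.9 CPM in high-K cells. In the list around the EGF receptor, Erbb2 and Erbb3 were higher than in low-K cells (log2 0.91 and 0.66), while Egfr did not pass the rule (-0.48).

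Of 4 tested genes around thrombomodulin and plasminogen, 3 were higher than in low-K cells (Thbd, F3 and Serpinb5). F3, tissue factor, was at 40.1 and 38.7 CPM in intermediate cells, against 13.96 and 18.1 CPM in low-K cells and 173 and 200 CPM in high-K cells. F2r, the thrombin receptor PAR1, was under the 20 CPM floor, at 3.61 and 4.51 CPM in intermediate cells, against 20.2 and 18.7 CPM in low-K cells and 0.582 and 0.973 CPM in high-K cells. Procr, the endothelial protein C receptor that works with thrombomodulin on vessels, was at 10.3 and 10.9 CPM in intermediate cells, against 39.1 and 39.3 CPM in low-K cells and 1.96 and 2.21 CPM in high-K cells. F2r and Procr were named after their values were seen.

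Around the prolactin receptor, 1 of 6 tested genes passed the rule against low-K cells and none against high-K cells. That gene was Ghr, the growth hormone receptor, at 14.9 and 19.4 CPM in intermediate cells, against 32.8 and 32.2 CPM in low-K cells and 17.0 and 17.9 CPM in high-K cells. Socs2, a feedback inhibitor of this signalling, was under the floor, at 13.1 and 18.1 CPM in intermediate cells, against 34.9 and 31.1 CPM in low-K cells and 11.2 and 9.99 CPM in high-K cells. It was named after its values were seen.

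Of 10 heat shock genes tested, 1 was higher (Hspb1) and 1 lower (Dnaja1) than in low-K cells, and 2 were lower than in high-K cells (Hspb1 and Hspa1a). Of 4 interferon genes, 1 was higher (Bst2) and 1 lower (Ifitm3) than in low-K cells, and Ifitm3 was higher than in high-K cells. Of 9 immediate early genes, 1 was lower than in low-K cells (Btg2) and 1 higher than in high-K cells (Btg1). The immune genes Cd74, H2-Aa, H2-Ab1 and H2-Eb1 passed the rule as lower than in low-K cells, with Cd74 at 5.18 and 18.2 CPM in intermediate cells, against 417 and 953 CPM in low-K cells. Without cells that held markers of other types, the log2 ratio was 0.02 for Cd74 and 1.20 for H2-Aa.

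The list of fibroblast markers included Dcn (decorin, log2 -3.32 over low-K cells) and Mmp2 (a gelatinase, log2 1.77). No cell of any class held 3 of the 8 fibroblast markers, and the source of these transcripts was not tested.

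Genes at least 2-fold apart between the ends were placed on a scale on which 0 is the low-K level and 1 the high-K level, in log2 units. The 557 genes (11.2%) that were lower in high-K cells had a median position of 0.43, and the 288 genes (5.8%) that were higher in high-K cells had a median position of 0.60. Of the genes lower in high-K cells 28.9% were at 0.5 or beyond, and of those higher there 72.6%. K itself was at 0.585. With median-of-ratios scaling the medians were closer, at 0.48 and 0.55. Among named genes the position was 0.14 for Krt5, 0.34 for Col17a1, 0.46 for Krt14, 0.51 for Lamb3 and 0.92 for Krt15, and 0.21 for Cnfn, 0.37 for Tgm1, 0.74 for Grhl3, 0.85 for Zfp750 and 1.04 for Notch3. Positions of the basal keratins, Col17a1 and Lamb3 depend on their low levels in high-K cells. The part of free RNA in those levels was not tested.

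**Figure D5:**
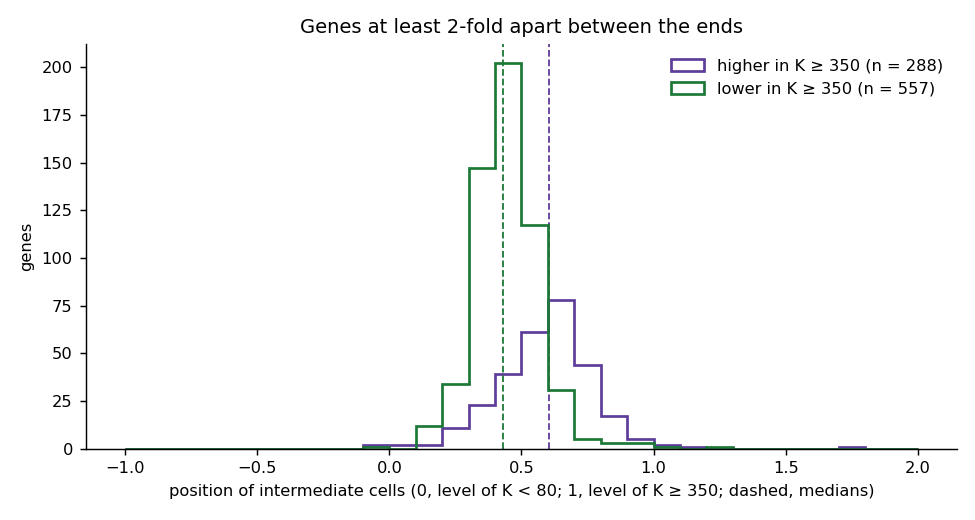
Number of genes (vertical axis) by position of intermediate cells between K<80 cells (0) and K>=350 cells (1) on the log2 scale (horizontal axis), with dashed lines at the medians, for 288 genes higher and 557 genes lower in K>=350 cells. The genes lower in K>=350 cells centre on 0.43 and the genes higher in K>=350 cells on 0.60.

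In the profile over 7 ranges of K, 201 genes had their highest level at K of 80 to 150 in both libraries, 129 at 150 to 250 and 100 at 250 to 350, of 4966 genes. Outside the window these counts were 591 at K under 20, 573 at 20 to 80, 70 at 350 to 700 and 732 at 700 or more. Krt6a, an inducible keratin of oral and wounded epithelium, was at 1287 and 990.0 CPM in intermediate cells, against 227 and 216 CPM in low-K cells and 964.5 and 979.5 CPM in high-K cells. Its reads may be shared with the near-identical Krt6b. The genes closest to the mean profile of Prlr, Thbd, Notch3 and Zfp750 over 7 ranges and 2 libraries were Hes1 (Pearson r 0.987), Pvrl1 (0.985), Mgst1 (0.984), 0610011F06Rik (0.983) and Ran. Notch3 itself had r of 0.981, Zfp750 0.933, Thbd 0.905 and Prlr 0.666 with that mean. These 14 points share libraries and depth, and r is given as a description.

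Single cells of the class differed in the transcripts they held. After thinning to 3000 UMIs, 19.7% and 19.97% of intermediate cells held both an anchoring transcript (Itgb4, Itga6 or Col17a1) and a suprabasal one (Dsg1a, Dsg1b, Grhl3, Sprr3 or Cnfn), with intervals of 17.4 to 22.2 and 17.8 to 22.3. The share was 9.43% and 9.78% in low-K cells and 10.7% and 9.12% in high-K cells. Immune cells, which should hold neither kind, had 2 of 21 and 0 of 35, at median depths of 6374 and 7351 UMIs. Anchoring transcripts alone were in 36.6% and 38.3% of intermediate cells, suprabasal ones alone in 16.3% and 16.3%, and neither in 27.4% and 25.4%. Any suprabasal one was in 36.0% and 36.3% of intermediate cells, 11.1% and 11.4% of low-K cells, and 4 of 21 and 3 of 35 immune cells. Any anchoring one was in 56.3% and 58.3% of intermediate cells and 19.3% and 17.0% of high-K cells, against 23.8% and 22.9% of immune cells. Krt14 was found in 81.3% and 81.7% of intermediate cells, 99.4% and 99.3% of low-K cells, and 61.5% and 62.5% of high-K cells, against 61.9% and 68.6% of immune cells. Krt5 was found in 95.9% and 96.3% of intermediate cells and 53.3% and 54.1% of high-K cells, against 57.1% and 62.9% of immune cells. The shares of high-K cells were thus not above those of the 21 and 35 immune cells for anchoring transcripts, Krt5 and Krt14. These high-K shares are not read as expression. The part of free RNA in cells with both kinds of transcript was not tested. Whether cells with both kinds were more common than the separate shares would give was not tested either. The summed Krt5 and Krt14 UMIs per 10000 had a median of 36.2 and 37.4 in intermediate cells, with 10% of cells under 9.73 and 10.7 and 10% over 105 and 108. Medians were 120.1 and 122 in low-K cells and 5.38 and 5.66 in high-K cells.

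The transcripts that varied most between intermediate cells, by variance over mean of UMIs after thinning, were Chil4 (138 and 113, against a median of 1.04 over 2457 genes), Krt14 (16.4 and 16.1), Krt17 (111 and 15.6), Gm42418, Krt6a, Malat1, Krt15, Fabp5, Mt4 and Krtdap. Chil4 encodes a secreted chitinase-like protein. The 10 and 12 cells with most Chil4 UMIs, 1% of the class, held 49.8% and 43.1% of them, while the median cell had 2.59 and 3.04 per 10000. Krt14 was spread more evenly: the 10% of cells with least had under 1.43 and 1.49 per 10000 and the 10% with most over 62.6 and 71.5. A single cell held 58.6% of the Krt17 UMIs of library 1 and another 41.3% of those of library 2, so Krt17 levels of this class depend heavily on 1 cell in each library.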

How the data were processed

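The deposited values are UMI counts per gene and cell barcode, 1 matrix per library, with 67962712 and 73935792 UMIs in 7215 and 9076 barcodes. The submitters' processing notes name Cell Ranger and mm10, and the version, cell-calling filter and annotation are not given in the sources used here. Kept cells were classed by the limits above. UMIs were summed per class and library and scaled to CPM, with a count of 0 set to 3. Genes were called at 1.5-fold the same way in both libraries and a mean of 20 CPM, with no test, since technical replicates give 1 independent sample. Intervals are exact at 95% (conditional binomial for ratios, Clopper-Pearson for shares).

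Named genes were the label markers, the 20 genes furthest above and 5 furthest below both ends, the 12 list genes highest and 12 lowest against each end, up to 4 examples per list, the 10 most variable genes and the 5 with the profile most like the markers. Krt1, Krt10, Klf4, Cebpa, Maf, Grhl2 and Dsc3 were named after their values were seen. No doublet caller was run. Cells, limits, markers and gene lists were chosen with earlier results of these data known. Of 27998 gene IDs, 27645 matched GENCODE M21 (GRCm38, the assembly of mm10). Promoters came from RefSeq. Alternatives were other scalings, thinning to 3000 UMIs, other floors, folds and limits, and leaving out cells or a library. Software was matplotlib 3.10.9, pandas 2.3.3, scipy 1.17.1 and numpy 2.4.6 under Python 3.11.15.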

Additional observations from a re-analysis of the deposited data

How the results depend on the processing

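Counts of genes are given here in the order higher and lower than low-K cells, then higher and lower than high-K cells, and each replaces 301, 322, 596 and 186. They were 145, 134, 185 and 80 with a 2-fold rule, 181, 137, 240 and 120 with a floor of 50 CPM, and 617, 1519, 2287 and 439 with a floor of 1 CPM. Against high-K cells, median-of-ratios scaling gave 298 higher and 316 lower, leaving out the 10% of cells with most UMIs gave 350 higher, and cells of 5000 to 9000 UMIs, chosen after seeing the data, gave 267 higher and 120 lower. Leaving out either library gave 339 to 350, 388 to 391, 705 to 794 and 198 to 222. Genes above both ends numbered 0 after thinning, with a 2-fold rule, with a floor of 50 CPM, without the 10% of cells with most UMIs and among cells of 5000 to 9000 UMIs. They numbered 13 with a floor of 1 CPM, 4 with K of 120 to 250, 4 with ends at K under 40 and at least 500, 2 with a mitochondrial limit of 5%, and 4 to 4 without a library. Genes below both ends numbered 0 with per-cell scaling, after thinning, with a 2-fold rule and without the 10% of cells with most UMIs, 13 with a floor of 1 CPM, 2 with K of 120 to 250, 2 with the wider ends, and 2 to 4 without a library. The cause of these shifts was not tested.

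The median position of genes higher in high-K cells was 0.55 with median-of-ratios scaling, 0.58 with K of 120 to 250, 0.58 with no histone or stress limit on the ends, 0.66 without the 10% of cells with most UMIs and 0.65 among cells of 5000 to 9000 UMIs. That of genes lower in high-K cells was 0.48 with median-of-ratios scaling, 0.46 with a floor of 1 CPM, 0.39 with the wider ends, 0.44 with cell-cycle sums under 3, 0.45 with a mitochondrial limit of 5%, 0.48 without the 10% of cells with most UMIs and 0.49 among cells of 5000 to 9000 UMIs. The share of intermediate cells was 7.54% and 7.02% with K of 120 to 250, 14.2% and 13.1% with cell-cycle sums under 3, 14.4% and 13.1% with a mitochondrial limit of 5%, and 16.4% and 15.7% without the 10% of cells with most UMIs.

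Of 128 called ratios of named genes, 97 kept their call under every other setting listed in advance except the 2-fold rule. Of the 128, 4 changed sign: over low-K cells Cd74 was 0.015 and H2-Aa 1.20 without cells with markers of other types, and Crct1 was -0.62 with no histone or stress limit on the ends, and over high-K cells Hspa1a was 0.22 without the 10% of cells with most UMIs. Of the 120 ratios that did not pass the rule, 34 changed sign under at least 1 setting, including Notch3 and Jag1 over high-K cells. Depth limits single-cell shares and genes under 20 CPM. No paired analysis was possible because the series has 1 group.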

Other observations

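A list of 46 genes that assemble ribosomes in the nucleolus was chosen after Nop56, Gnl3 and Mrto4 had been seen among the genes furthest above both ends, so its count supports nothing. Of 37 tested genes, 29 lay above both ends in both libraries (78.4%), where 815 of all 4966 genes did (16.4%), and none lay below both. The medians were small, with log2 ratios of 0.26 over low-K and 0.29 over high-K cells, and 2 genes passed the 1.5-fold rule over low-K cells and 0 over high-K cells. Nop56, a core protein of box C/D snoRNPs, was at 105 and 113 CPM in intermediate cells, against 78.9 and 82.2 CPM in low-K cells and 82.5 and 83.7 CPM in high-K cells. Gnl3, nucleostemin, was at 84.0 and 86.2 CPM in intermediate cells, against 66.7 and 60.8 CPM in low-K cells and 60.3 and 56.2 CPM in high-K cells. Across K the list median was highest from 150 to 250, at log2 0.32 over K of 20 to 80, and was -0.13 at K of 700 or more. The count also moved with the setting. With median-of-ratios scaling 23 of 37 genes lay above both ends (7.37% of all genes), and among cells of 5000 to 9000 UMIs 13 of 37 did (12.4% of all genes). The median over high-K cells was 0.091 and 0.16 in these settings.

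Myc, which drives transcription of ribosome assembly genes, was at 92.8 and 107 CPM in intermediate cells, against 66.3 and 73.5 CPM in low-K cells and 64.6 and 69.8 CPM in high-K cells. Mt1, a metal-binding metallothionein, was at 2161 and 2013 CPM in intermediate cells, against 1488 and 1425 CPM in low-K cells and 1455 and 1326 CPM in high-K cells. Neither passed the 1.5-fold rule against either end. Birc5, survivin, was at 29.3 and 33.1 CPM in intermediate cells, against 19.9 and 21.3 CPM in low-K cells and 19.1 and 19.9 CPM in high-K cells, and Cenpa, the centromeric histone, at 28.9 and 32.4 CPM, against 21.4 and 23.0 CPM in low-K cells and 12.2 and 14.4 CPM in high-K cells. Both are mitotic transcripts outside the rule, and their sources among the intermediate cells were not tested.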
